A study of Mus musculus with 6 samples.

Results

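The liver X receptors (LXRs) and the genes that move cholesterol out of cells were followed in gonadal white adipose tissue (gWAT). The set comprised 7 genes, taken by gene symbol: the receptor genes Nr1h3 (LXRα) and Nr1h2 (LXRβ), the transporter genes Abca1 and Abcg1, Apoe, Mylip and Soat1. All 7 were found, by NCBI gene identifier, among the 19790 genes of the count table, and all 7 passed the filter on low counts. LXRs are nuclear receptors that bind oxysterols, oxidised forms of cholesterol, and act on DNA together with a retinoid X receptor (RXR). When bound by oxysterol they raise the transcription of ABCA1 and ABCG1, membrane transporters that pass cholesterol to lipid-poor apolipoprotein and to high-density lipoprotein, and of apolipoprotein E and MYLIP, a ubiquitin ligase that sends lipoprotein receptors for degradation. SOAT1 esterifies cholesterol for storage in droplets and so takes it out of the pool open to efflux. In fat, adipocytes hold a large store of free cholesterol, and macrophages that clear dying adipocytes handle much lipid.

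The mice were wild-type C57BL/6 males by the labels and the methods, and each of the 6 libraries came from the gWAT of 1 mouse. The NCD group of 3 mice received a normal chow diet and the HFD group of 3 mice a high-fat diet for 8 weeks, which the labels start at 6 weeks of age and the methods at 8 weeks. The third HFD replicate is numbered 4 in its column name. The question put to the genes was how their mRNA differed between the diets.

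The libraries held 49575113 to 66360046 counts. Levels are given as CPM, the counts of a gene relative to the size of its library, scaled by edgeR's TMM method, which corrects for the make-up of each library. NCD replicate 1 stood apart: 11 secretory genes of the seminal vesicle, a gland beside this fat pad, took 58.6% of its counts, against 11.2% and 2.30% in NCD replicates 2 and 3, and 16 counts in all of the HFD libraries together. The 6 adipocyte markers (Adipoq, Plin1, Cidec, Fabp4, Pparg and Lipe) were present in every library, with summed levels of 3232, 12813.5 and 17788 CPM in NCD replicates 1 to 3 and 11517, 13195 and 10227 CPM in HFD replicates 1 to 3. Each result is therefore given with all 6 mice and again without NCD replicate 1.

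With all 6 mice, Abcg1 and Soat1 rose on HFD, 7.22-fold and 8.47-fold, and none of the other 5 genes passed the test (edgeR's quasi-likelihood test, Benjamini-Hochberg adjusted over 15241 genes, threshold 0.05). This made 2 of 7 genes higher and 0 lower, where 5.58% of all genes tested were higher and 1.90% lower. In the fit without NCD replicate 1, Abcg1 and Soat1 again rose and the other 5 again did not pass, where 10.7% of 15510 genes were higher and 10.1% lower. The median log2 fold change of the 7 genes was 0.14 with all mice and 0.21 without NCD replicate 1, beside -0.08 and 0.02 over all genes tested. The 2 calls were lost when any mouse other than NCD replicate 1 was left out, with adjusted p between 0.0548 and 0.0971, although the log2 fold changes stayed between 2.74 and 3.31.

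**Figure D1:**
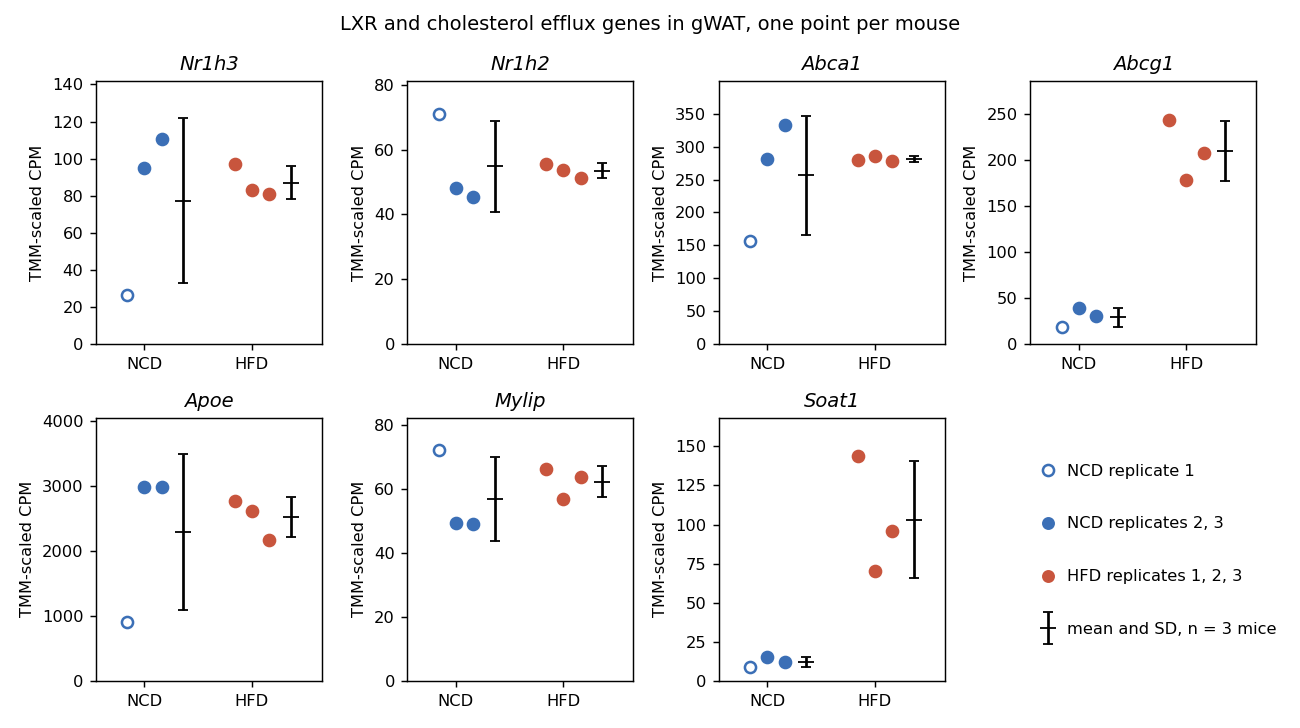
Level of each gene as TMM-scaled CPM (y axes start at 0) in each mouse, with NCD in blue, NCD replicate 1 as an open circle, HFD in red, and the mean and SD of 3 mice in black. Abcg1 and Soat1 have all HFD mice above all NCD mice, whereas NCD replicate 1 lies below the other mice for Nr1h3, Abca1 and Apoe and above them for Nr1h2 and Mylip.

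The promoters of 2 of the genes are shown because they stand for the opposite outcomes: Abca1, a textbook LXR target that did not pass the test, and Soat1, which had the larger rise. Both stretches are the 250 bases upstream of a transcription start from RefSeq, assembly GRCm38.p6, read 5′ to 3′ on the strand of the gene. Abca1 lies on the minus strand at chr4:53159896-53160145 and Soat1 on the minus strand at chr1:156474329-156474578. Capitals mark the best match, on either strand, to 2 copies of AGGTCA spaced by 4 bases, the arrangement that LXR with RXR prefers, which reads TGACCT on the opposite strand.
Abca1: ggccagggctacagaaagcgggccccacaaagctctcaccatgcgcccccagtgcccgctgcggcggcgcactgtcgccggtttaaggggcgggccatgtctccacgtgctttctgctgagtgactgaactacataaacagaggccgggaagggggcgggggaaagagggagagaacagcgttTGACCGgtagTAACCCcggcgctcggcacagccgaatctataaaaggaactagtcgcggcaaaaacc
Soat1: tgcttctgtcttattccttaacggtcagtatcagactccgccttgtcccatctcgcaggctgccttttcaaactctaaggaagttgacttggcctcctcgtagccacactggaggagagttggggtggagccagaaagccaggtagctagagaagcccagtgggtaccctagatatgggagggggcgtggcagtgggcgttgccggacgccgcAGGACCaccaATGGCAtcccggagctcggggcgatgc
The Abca1 match, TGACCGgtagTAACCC, began 67 bases before the start and differed from the repeat at 3 of its 12 fixed positions. A match with at most 3 differences was held by 21.9% of the 32851 promoter windows of 300 bases in the table. The Soat1 match differed at 4 positions, a level reached by 76.9% of the windows. Among the 6 genes with an entry, which are all but Abcg1, Abca1 was the 1 gene with a match at 3 differences, while Apoe, Nr1h2, Nr1h3 and Soat1 had best matches at 4 and Mylip at 5.

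Of the receptor genes, Nr1h3 (NCBI gene 22259, chr2:91184061-91202829 in GRCm38.p6) encodes LXRα, the receptor form of liver, fat and macrophages. Its level was 26.7, 95.0 and 110.3 CPM in NCD replicates 1 to 3 and 97.4, 83.1 and 80.7 CPM in HFD replicates 1 to 3. NCD replicate 1 was far below every other mouse, and the remaining mice of the 2 diets overlapped. The log2 fold change was 0.17 ± 0.49 (SE, n = 3 mice per diet) with adjusted p = 0.839 by edgeR, and -0.22 ± 0.14 with adjusted p = 0.293 without NCD replicate 1.

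Nr1h2 (gene 22260, chr7:44549616-44553968) encodes LXRβ, which most tissues make. Its level was 70.9, 48.2 and 45.5 CPM in the NCD mice and 55.6, 53.8 and 51.1 CPM in the HFD mice. NCD replicate 1 was here the highest mouse, the reverse of Nr1h3, and the HFD mice lay above both other NCD mice. The log2 fold change by edgeR was -0.04 ± 0.20 (adjusted p = 0.920), and 0.21 ± 0.10 (adjusted p = 0.195) without NCD replicate 1.

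Since both receptor genes were read in the same library, their ratio does not depend on the scaling between libraries. On counts per kilobase of exon, Nr1h3 over Nr1h2 was 0.351, 1.84 and 2.26 in NCD replicates 1 to 3 and 1.63, 1.44 and 1.47 in the HFD mice. LXRα mRNA was thus above LXRβ mRNA in 5 of 6 mice, the exception being NCD replicate 1. The mean log2 ratio was 0.18 ± 1.47 (SD, n = 3) on NCD and 0.60 ± 0.10 on HFD, a difference of 0.42 with p = 1 in an exact two-sided permutation test over mice. Leaving out NCD replicate 1 turned the difference to -0.43, with an exact permutation p = 0.2, the smallest that 2 mice against 3 allow.

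Among the transporters, Abca1 (gene 11303, chr4:53030789-53159988), which loads lipid-poor apolipoprotein, had the more abundant mRNA on NCD. Its level was 157, 282 and 332 CPM in the NCD mice and 280.2, 286 and 278 CPM in the HFD mice. The HFD mice lay close together, with an SD of 4.21 CPM against 90.4 CPM on NCD, and inside the range of the NCD mice. By edgeR the log2 fold change was 0.13 ± 0.30 (adjusted p = 0.790), and -0.11 ± 0.14 (adjusted p = 0.603) without NCD replicate 1. In the latter fit, 2 SE on either side ran from -0.40 to 0.17.

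Abcg1 (gene 11307, chr17:31057694-31117984), whose product acts with high-density lipoprotein as the acceptor, moved apart from Abca1. It stood at 18.2, 39.0 and 30.1 CPM in the NCD mice and at 244, 178 and 208 CPM in the HFD mice. The lowest HFD mouse was well above the highest NCD mouse. Its log2 fold change was 2.85 ± 0.32 (SE, n = 3 mice per diet; adjusted p = 0.0212 by edgeR), with all 3 HFD mice above all NCD mice. With NCD replicate 1 left out it was 2.62 ± 0.21 (adjusted p = 0.00544), or 6.14-fold. By size of rise Abcg1 ranked 291 of 15241 genes.

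The ratio of the transporters fell accordingly. Per kilobase of exon, Abca1 over Abcg1 was 5.73, 4.81 and 7.34 in the NCD mice and 0.764, 1.07 and 0.888 in the HFD mice. Abca1 mRNA was the more abundant of the pair in every NCD mouse, whereas on HFD the 2 were near parity. The log2 ratio fell by 2.71, that is 6.54-fold, with p = 0.1 in the exact two-sided permutation test, the smallest p that 3 mice against 3 can give. Leaving out NCD replicate 1 left the fall at -2.73 on the log2 scale (exact permutation p = 0.2, the smallest for 2 against 3).

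**Figure D2:**
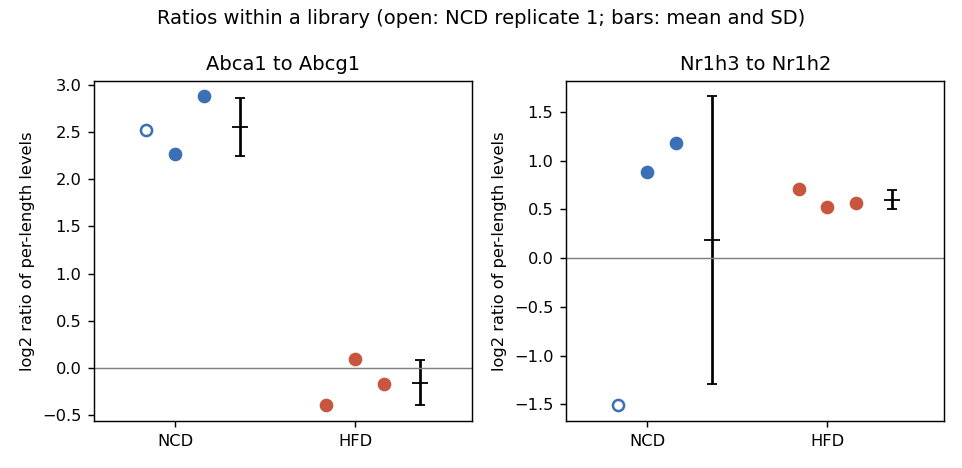
Log2 ratio of levels per kilobase of exon within each mouse, for Abca1 over Abcg1 (left) and Nr1h3 over Nr1h2 (right), with NCD in blue, NCD replicate 1 open, HFD in red, and the mean and SD of 3 mice in black. The transporter ratio separates the diets, and the receptor ratio of NCD replicate 1 lies far below those of the other 5 mice.

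Apoe (gene 11816, chr7:19696244-19701310), the apolipoprotein that carries effluxed cholesterol from macrophages and adipocytes, was the most abundant member. It stood at 911, 2972 and 2983 CPM in the NCD mice and 2769, 2609 and 2172 CPM in the HFD mice. All HFD mice lay between NCD replicate 1 and the other NCD mice. The log2 fold change by edgeR was 0.14 ± 0.54 (adjusted p = 0.883), and -0.23 ± 0.25 (adjusted p = 0.550) without NCD replicate 1.

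Mylip (gene 218203, chr13:45389742-45411940), the LXR target that encodes this ubiquitin ligase, stood at 72.1, 49.4 and 49.3 CPM in the NCD mice and 66.4, 57.0 and 63.9 CPM in the HFD mice. NCD replicate 1 was again the highest mouse, and the HFD mice lay above both other NCD mice. The log2 fold change by edgeR was 0.13 ± 0.20 (adjusted p = 0.675), and 0.35 ± 0.11 (adjusted p = 0.0803) without NCD replicate 1.

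Soat1 (gene 20652, chr1:156428108-156474328), the acyltransferase that stores cholesterol as ester, had the lowest level of the set on NCD and the largest rise. It stood at 8.74, 15.6 and 12.2 CPM in the NCD mice and 143, 70.0 and 95.8 CPM in the HFD mice. Every HFD mouse exceeded every NCD mouse by far, with the HFD mice themselves spread over a wide range. Its log2 fold change by edgeR was 3.08 ± 0.36 (n = 3 mice per diet, adjusted p = 0.0212), and 2.91 ± 0.35 (adjusted p = 0.00810, 7.50-fold) without NCD replicate 1. Soat1 ranked 227 of 15241 by size of rise.

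In all, 2 of 7 genes had every HFD value above every NCD value, which 20.5% of all genes tested had. Without NCD replicate 1, Nr1h2 and Mylip joined Abcg1 and Soat1, making 4 of 7 with every HFD value above both NCD values, beside 27.9% of all genes, and Apoe was the 1 gene with every HFD value below, beside 29.1%. Leaving out that library turned the sign of the fold change for 4 of 7 genes, Abca1, Nr1h2, Nr1h3 and Apoe, none of which passed in either fit.

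**Figure D3:**
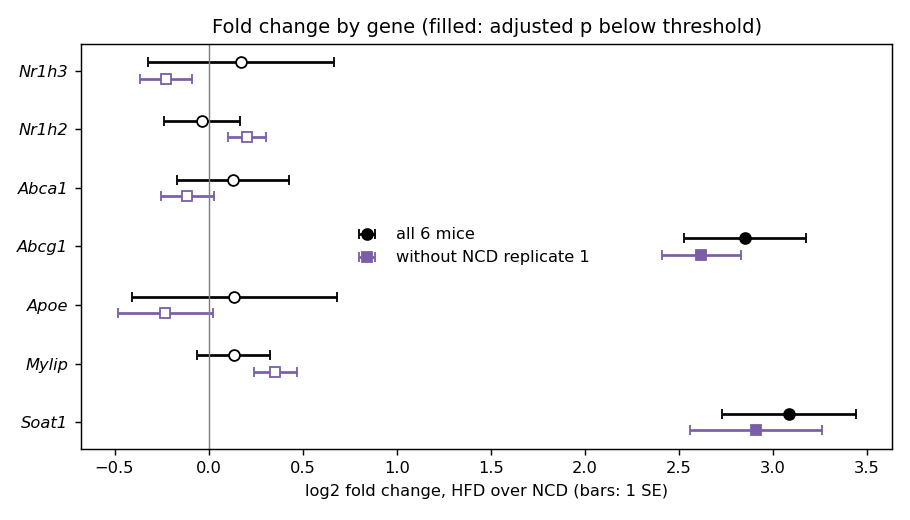
Log2 fold change of HFD over NCD for each gene from edgeR, with bars of 1 SE, for all 6 mice (black circles) and without NCD replicate 1 (purple squares), filled where the adjusted p was below 0.05. Abcg1 (2.85 and 2.62) and Soat1 (3.08 and 2.91) are filled in both fits, and the other 5 genes lie near 0.

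Compared per kilobase of exon, the order of the mRNA levels changed between the diets. On NCD the means were 1245 TMM-scaled CPM per kilobase for Apoe, 36.0 for Nr1h3, 27.4 for Nr1h2, 25.0 for Abca1, 17.6 for Mylip, 4.26 for Abcg1 and 1.45 for Soat1. Neighbours from Nr1h3 down to Mylip overlapped between mice, while Apoe, Abcg1 and Soat1 were apart from their neighbours. That overlap rested on NCD replicate 1. In NCD replicates 2 and 3, Nr1h3 was at 44.2 and 51.3, Abca1 at 27.4 and 32.4, Nr1h2 at 24.0 and 22.7, and Mylip at 15.3 and 15.2. In these 2 mice Abca1 was thus above Nr1h2, as in the HFD means. On HFD the means per kilobase were 1369 for Apoe, 40.5 for Nr1h3, 30.8 for Abcg1, 27.4 for Abca1, 26.7 for Nr1h2, 19.3 for Mylip and 12.3 for Soat1. Abcg1 had moved from the sixth place to the third, where its range overlapped that of Abca1, and Abca1 overlapped Nr1h2. Soat1 remained the lowest.

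Macrophage markers were at a higher level in every HFD mouse, as Abcg1 and Soat1 were. The 8 markers (Adgre1, Cd68, Csf1r, Itgam, Mrc1, Lyz2, Cd14 and Fcgr1) summed to 366, 881 and 815 CPM in the NCD mice and to 3440.0, 2309.6 and 2947 CPM in the HFD mice, a log2 difference of 2.08 between the group means. By edgeR, 4 of 8 were higher with all mice, where 5.58% of all genes were, and 8 of 8 without NCD replicate 1, where 10.7% were. None was at 0 in any library. In whole tissue, more cells of a type and more RNA per cell cannot be told apart, and the part of the markers in the rise of Abcg1 and Soat1 was not tested. In the HFD mice, the orders of the marker sum, Abcg1 and Soat1 were the same, replicate 1 highest and replicate 2 lowest. Adgre1, Cd68, Csf1r and Lyz2 had this order as well. Itgam, Mrc1, Cd14 and Fcgr1 had another, lowest in replicate 1 and highest in replicate 3.

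Levels were also set against the macrophage marker sum, a measure chosen after the values had been seen. Per 1000 CPM of markers, Abcg1 was 49.6, 44.2 and 37.0 CPM in the NCD mice and 71.0, 77.1 and 70.6 CPM in the HFD mice, a log2 difference of 0.75. Soat1 was 23.9, 17.7 and 14.9 CPM on NCD and 41.7, 30.3 and 32.5 CPM on HFD, a log2 difference of 0.90. For both, all HFD mice were still above all NCD mice on this scale. Lyz2 made up much of the sum, with group means of 330 of 687 CPM on NCD and 1033 of 2899 CPM on HFD. By edgeR with all mice, the log2 fold changes of the single markers ran from 1.62 for Csf1r to 3.17 for Cd68. Those of Abcg1 and Soat1 were 2.85 and 3.08. Cd68 and Fcgr1 (3.16) rose more than both genes, and Adgre1 (2.86) lay between the 2. Csf1r, Itgam, Mrc1, Lyz2 and Cd14 rose less than both. The size of both differences, and whether they lie above 0, thus depend on the markers summed, and other sums were not tested. The other 5 genes were lower on HFD relative to the markers, with log2 differences from -2.17 for Nr1h2 to -1.75 for Nr1h3. Without NCD replicate 1 the log2 differences were 0.85 for Abcg1 and 1.09 for Soat1. For the other 5 they then ran from -2.01 for Apoe to -1.42 for Mylip. As the marker sum rose, a gene unchanged between the diets is lower on this scale by construction.

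**Figure D4:**
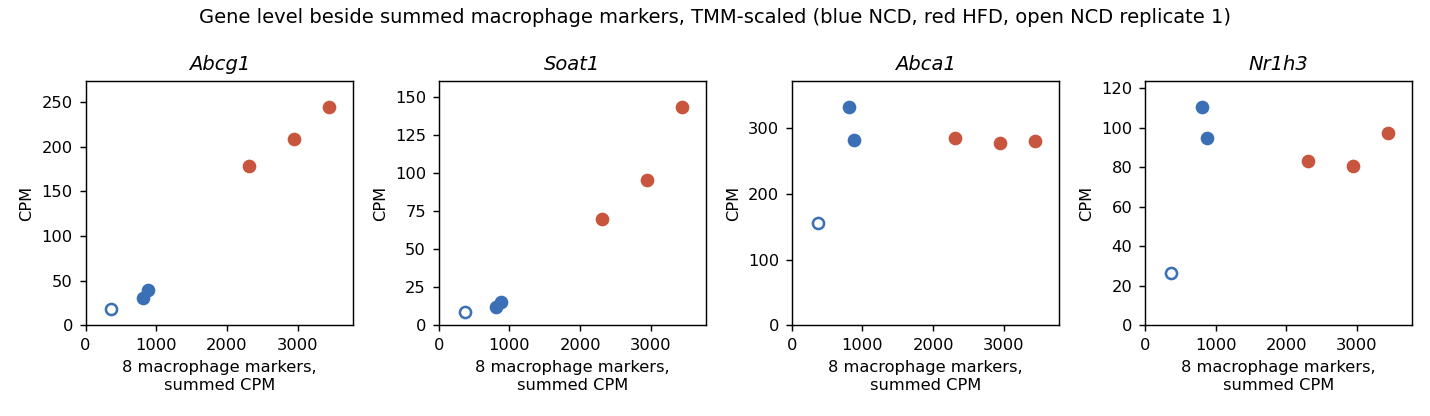
TMM-scaled CPM of 4 genes (y axes) against the summed TMM-scaled CPM of 8 macrophage markers (x axis), 1 point per mouse, NCD in blue, NCD replicate 1 open, HFD in red. Abcg1 and Soat1 are high in the 3 HFD mice, where the marker sum is 2309.6 to 3440.0 CPM, while Abca1 and Nr1h3 stay at the level of NCD replicates 2 and 3.

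Markers of other cell types were summed in the same way. The endothelial markers were 235, 666 and 722 CPM on NCD and 909, 744 and 739 CPM on HFD, and those of stromal progenitors 670.2, 1384 and 1078 CPM against 1510.3, 1625 and 1100.1 CPM. Smooth muscle markers were 4726, 555 and 162 CPM on NCD and 244, 160.4 and 158 CPM on HFD, and epithelial markers 1078, 108 and 25.6 CPM against 15.7, 78.4 and 28.3 CPM. NCD replicate 1, the library with the low Nr1h3, Abca1 and Apoe, thus had the least adipocyte, macrophage and endothelial marker RNA and the most smooth muscle and epithelial marker RNA. The part of this make-up in those values was not tested. Mesothelial markers summed to 70.8 to 202 CPM on NCD and 127 to 451 CPM on HFD, and B and T cell markers to at most 17.4 CPM in any mouse. Of the 6 adipocyte markers, 0 passed by edgeR with all mice, where 5.58% of all genes were higher and 1.90% lower. Without NCD replicate 1, 3 were lower, where 10.1% of all genes were. They were Plin1 (-1.17), Pparg (-1.11) and Lipe (-0.95), while Fabp4, the most abundant marker, was at -0.04.

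The genes with the most similar pattern to each member were sought over the 6 libraries by Pearson's r of log2(CPM + 1), among 13593 genes of at least 1 CPM on average. The libraries share their diets and the depth of each run, so r describes the pattern and no test was made. For Abcg1 they were Rab11fip5 (r = 0.9997), C3ar1 (0.9994) and Sdc3 (0.9992), and for Soat1 Cd300a (0.9994), Adam8 (0.9989) and Plxnc1 (0.9986). C3ar1, a complement receptor of myeloid cells, was at 18.1, 45.5 and 30.1 CPM on NCD and 321, 234 and 285 CPM on HFD. Cd300a, an inhibitory receptor of leukocytes, was at 4.81, 10.2 and 7.91 CPM on NCD and 133, 63.3 and 81.1 CPM on HFD.

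The other members had different partners. For Abca1 they were Mpp1 (r = 0.9995), Etfa (0.9971) and Grina (0.9954), for Nr1h3 Dgke, Acot9 and Fam89a (0.9978 to 0.9987), and for Apoe Gnb4, Fam89a and Rasgrp3 (0.9953 to 0.9969). For Nr1h2 they were Smpdl3b and Map3k9 (0.9966 to 0.9969) and for Mylip Chek1, Zdhhc20 and Ttpal (0.9925 to 0.9959). Fam89a was named for both Nr1h3 and Apoe. Each partner named in this paragraph, like its member, had its lowest or highest value in NCD replicate 1. Mpp1 was at 63.3 CPM there and 187 to 257 CPM in the other mice. Map3k9 was at 16.7 CPM there and 1.41 to 5.65 CPM in the others. That library therefore weighs on these r, which were not computed without it. An r above 0.95 was common, reached by 701 genes for Abcg1, 623 for Soat1 and 82 for Mylip.

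The wider pathway was described by 59 further genes in 7 lists, of which 54 passed the count filter with all mice and 55 without NCD replicate 1. With all 6 mice 3 were higher (Ncoa3, Npc1 and Nceh1) and 2 lower (Fasn and Lpcat3), with a median log2 fold change of -0.09, beside -0.08 over all genes tested, of which 5.58% were higher and 1.90% lower. Without NCD replicate 1 the same 5 passed and 15 more joined them, to 8 higher and 12 lower, with a median of 0.01 beside 0.02 over all genes, of which 10.7% were higher and 10.1% lower. Calls of the latter fit rest on 5 mice.

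Of the 12 LXR partners and co-regulators, 1 was higher and 0 lower with all mice, where 5.58% and 1.90% of all genes were. Ncoa3, a coactivator of nuclear receptors, stood at 56.0, 60.2 and 58.6 CPM on NCD and 90.8, 96.1 and 103.6 CPM on HFD (log2 fold change 0.73, adjusted p = 0.0307 by edgeR). Every HFD mouse was above every NCD mouse. In the fit of 5 mice, Rxra (-0.87), Rxrg (-1.02), the coactivator Ncoa1 (-0.54) and Tbl1x (-0.69), a part of the corepressor complex, were lower. Of all genes, 10.1% were lower in that fit and 10.7% higher. Rxra stood at 84.7, 244 and 247 CPM on NCD and 142, 145 and 113 CPM on HFD, so that its diets overlapped only through NCD replicate 1.

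None of the oxysterol genes passed in either fit, with 6 tested with all mice and 7 without NCD replicate 1. Of all genes, 5.58% were higher and 1.90% lower in the first fit, and 10.7% and 10.1% in the second. Hsd3b7, an enzyme of bile acid synthesis that also acts on oxysterols, had the highest CPM of the list. It stood at 55.7, 78.8 and 102.1 CPM on NCD and 62.9, 88.0 and 78.6 CPM on HFD, and the diets overlapped.

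Of the 16 other genes known to be driven by LXR, 14 were tested, 0 were higher and 2 lower with all mice, against 1 higher and 6 lower without NCD replicate 1, where over all genes 5.58% were higher and 1.90% lower with all mice, and 10.7% and 10.1% in the other fit. Fasn, the fatty acid synthase, stood at 3744, 17230 and 14990 CPM on NCD and 217, 204 and 87.1 CPM on HFD, a log2 fold change of -6.15 (adjusted p = 0.0253 by edgeR). Lpcat3, which places polyunsaturated chains into phospholipid, stood at 114, 127 and 117 CPM on NCD and 71.9, 68.9 and 69.3 CPM on HFD (log2 fold change -0.77, adjusted p = 0.0281 by edgeR). The diets did not overlap for either gene. In the fit without NCD replicate 1, Srebf1 (-2.23), Mlxipl (-1.86), Scd1 (-2.85) and Apoc1 (-0.84) were lower as well, and Arl4c (1.23) was higher. Srebf1, Mlxipl, Fasn and Scd1 encode lipogenic regulators and enzymes that are known to answer to insulin as well.

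Of the 3 ester genes and the 9 lysosomal and transport genes, Nceh1 and Npc1 passed with all mice. Nceh1, which hydrolyses cholesterol ester in macrophages, stood at 13.5, 11.3 and 8.67 CPM on NCD and 163, 58.5 and 80.7 CPM on HFD (log2 fold change 3.18, adjusted p = 0.0223 by edgeR). Npc1, which exports cholesterol from the lysosome, stood at 28.9, 46.3 and 39.8 CPM on NCD and 114, 81.0 and 96.2 CPM on HFD (log2 fold change 1.34, adjusted p = 0.0298 by edgeR). For both, the diets did not overlap. When NCD replicate 1 was left out, the lysosomal acid lipase Lipa (2.29) and Stard3 (0.93), a sterol carrier of late endosomes, were higher too, and the hormone-sensitive lipase Lipe (-0.95) was lower. The 9 lysosomal and transport genes had 1 higher with all mice and 3 without NCD replicate 1, beside 5.58% and 10.7% of all genes, and their median log2 fold change was -0.38 and then 0.21. The 3 ester genes had 1 higher and 0 lower, then 1 higher and 1 lower, with medians of 3.18 and 3.34. Each of these medians is the value of Nceh1 itself. Lipe was at -0.54 and then -0.95, so the medians do not describe the list as a whole. Of all genes, 1.90% were lower with all mice and 10.1% without NCD replicate 1.

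Of the 5 other efflux and HDL genes none passed with all mice, and Abca7 (0.63), a relative of Abca1, was higher without NCD replicate 1. Of the 5 lipoprotein receptor genes none passed with all mice. In the fit without NCD replicate 1, Lrp1, a receptor for APOE-bearing particles, was higher (1.11). Over all genes, 5.58% were higher and 1.90% lower with all mice, and 10.7% and 10.1% without NCD replicate 1.

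**Figure D5:**
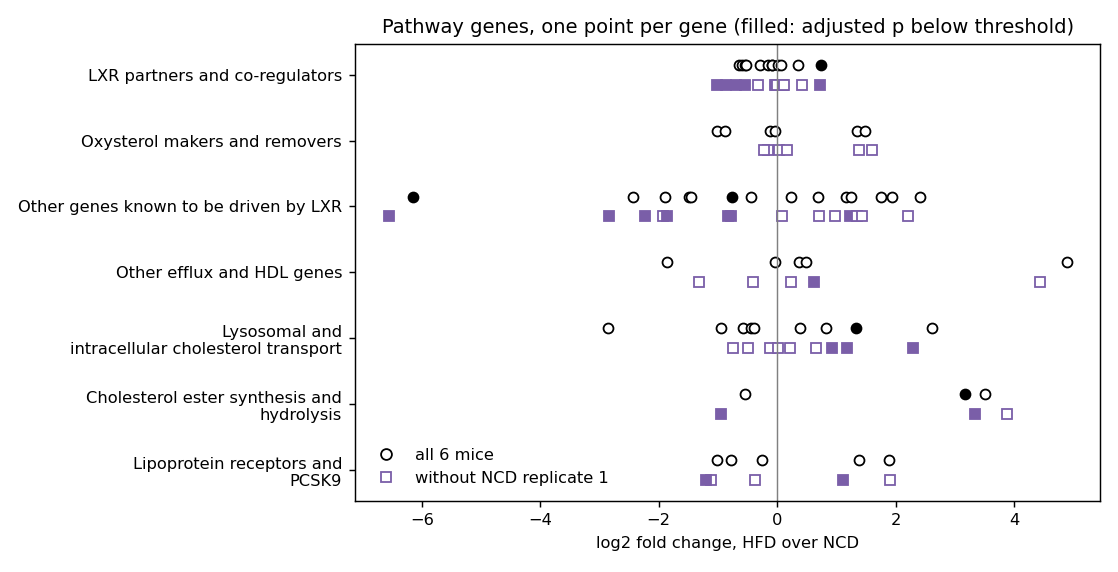
Log2 fold change of HFD over NCD (x axis) for the pathway genes tested in both fits, 1 point per gene, by list (rows), for all 6 mice (black circles) and without NCD replicate 1 (purple squares), filled where the adjusted p was below 0.05. Filled points lie on both sides of 0, and Fasn stands far to the left at -6.15 and -6.56.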

How the data were processed

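The deposited table holds whole-number read counts, not normalized by the authors, with a row for each NCBI gene identifier and a column for each mouse. The submitters' processing notes name bcl2fastq 2.20.0, Trimmomatic, HISAT2 2.1.0, StringTie 1.3.4d and DESeq2, and the builds mm10 and GRCm38. Not given in the sources used here were the annotation, the read filters and the strand setting of the counting, so reads of overlapping genes may not be told apart. Columns were assigned by the names in the labels, and 0 columns lacked a sample.

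Of 19790 identifiers, 19742 had a symbol in RefSeq's annotation of GRCm38.p6, and those without one held 0.629% of the counts. Exon lengths came from GENCODE vM21 for 17794 genes, including all 7 members. Low-count genes were removed by filterByExpr with a minimum count of 10 and a minimum total of 15. After TMM scaling, edgeR 4.0.16 in R 4.3.3 was used for the quasi-likelihood test over every gene kept, and p-values were adjusted by Benjamini-Hochberg, with a threshold of 0.05. The SE is the size of the log2 fold change over the square root of F. The common biological coefficient of variation was 0.424. The procedure was tested on simulated data. Ratios within a library were compared with exact two-sided permutation tests over mice.

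Depth was 49575113 to 66360046 counts per library, so the spread between mice limits the precision. Within a diet, no pair of libraries was alike within sampling noise (111 to 3438 chi-square units per degree of freedom), so each counted as its own replicate. The design text calls the samples biological replicates. The members and the lists were chosen with earlier results of these data known. Beside the members, the genes named are those of each list past the threshold in the fit of all mice or in that without NCD replicate 1, the most abundant gene of a list with none, the 3 genes most like each member, and the cell type markers. Some genes that this rule names are not reported here.

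The alternatives were no filter on low counts, median-of-ratios, upper-quartile and total-count scaling, TMM without the 11 seminal vesicle genes, DESeq2 1.42.0, limma 3.58.1 voom with sample weights, omission of each mouse in turn, a block for the replicate number, and for the ratios counts without division by length. Figures were drawn with matplotlib 3.10.9.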

Additional observations from a re-analysis of the deposited data

How the results depend on the processing

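Abcg1 and Soat1 were higher on HFD under all 14 alternatives and past the threshold under 8 of them, and none of the other 5 genes passed under any. Under the replicate block, 0 members and 0 pathway genes passed, with log2 fold changes of 2.90 for Abcg1 and 3.05 for Soat1 (adjusted p = 0.0675 for both by edgeR). Same-numbered mice did not deviate together (r from -0.05 to -0.01), so the numbers were not taken to pair mice. With 1 mouse left out at a time, 0 to 2 members and 0 to 20 pathway genes passed. Abcg1 ranged from 2.62 to 3.12 and Soat1 from 2.78 to 3.31, past the threshold only without NCD replicate 1. The ranges were -0.11 to 0.37 for Abca1, -0.13 to 0.21 for Nr1h2, -0.22 to 0.53 for Nr1h3 and -0.23 to 0.39 for Apoe. Each of these 4 changed sign without NCD replicate 1, and Nr1h2 also without HFD replicate 3 (0.01). The difference in the log2 ratio of Nr1h3 to Nr1h2 ranged from -0.43, without NCD replicate 1, to 0.91.

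With limma voom and sample weights, the log2 fold change was -0.019 for Abca1, 0.15 for Nr1h2, -0.16 for Nr1h3 and -0.18 for Apoe. In that fit 26 of 54 pathway genes passed, against 22 with DESeq2 and 3 of 54 with total counts only. Total counts only gave 0.56 for Nr1h2, while the median over all genes shifted to 0.44 under that setting. NCD replicate 1 had a weight of 0.134 in the voom fit. Over all genes, 5570 of 15241 passed with voom, 3853 of 18993 with DESeq2 and 959 of 15241 with total counts only. The counts of pathway genes are to be read beside these. In the main test 1139 genes passed, 803 without the filter and 3234 without NCD replicate 1. With the replicate block 12 passed, and 2 to 7 with another mouse left out. The SE of Nr1h3 was 0.49 with all mice and 0.14 without NCD replicate 1, and that of Apoe 0.54 and 0.25.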
